A study of Mus musculus with 10 samples.

Results

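Chemokines are small secreted proteins that steer migrating leukocytes, and their receptors are G protein-coupled receptors on the cells they steer. The genes described here are the gene symbols of the count tables that name a chemokine ligand (Ccl, Cxcl, Xcl or Cx3cl with a number) or a chemokine receptor (Ccr, Cxcr or Ackr with a number). They number 62 of 48397 gene symbols. There are 26 CC ligands, 15 other ligands, 17 signalling receptors and 4 atypical receptors, and 8 of the 62 carry a suffix after the number, such as Ccl27a or Ccl19-ps1. The roles follow the symbols: Ccl19-ps1 and Ccl19-ps3, counted with the CC ligands, are annotated as pseudogenes, and Cxcl11 as a polymorphic pseudogene.

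RNA was sequenced in bulk from the left atrium of wild-type mice, which the series' design text gives as C57BL/6J males. In the TAC group, 5 libraries came from mice with transverse aortic constriction, an operation that narrows the aortic arch and loads the heart with pressure. In the Sham group, 5 libraries came from mice with sham surgery. Both groups were operated on at 2 months of age and their tissue was taken 2 weeks later, and no allele or agent besides the operation is named. The sources differ on the material: left appendage, RNeasy and TruSeq kits in the design text, but left atrium with RNeasy Plus and Nugen Trio low-input kits in the sample labels, and no batch is named. Whether each library is 1 animal is not stated, so p-values here cover the spread among these samples, which may be technical.

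Chemokines fall into families by the spacing of conserved cysteines near the start of the protein, and most receptors respond to several ligands of 1 family. A signalling receptor guides the cell towards its ligand, whereas an atypical receptor binds chemokines without the usual G protein signal and often removes them. In the heart, resident macrophages, stromal cells and endothelial cells make chemokines, and monocytes that carry Ccr2 are recruited from the blood after injury.

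Total counts over genes ran from 29493200 to 41358617 in TAC and from 17117306 to 43956384 in Sham. Atrial cardiomyocyte markers were abundant in both groups: Myl7, the atrial myosin light chain, averaged 2158 ± 811 counts per 1000000 (CPM) in TAC and 8888 ± 623 CPM in Sham (SD, n = 5 each). Most of the variance, 70.2%, lay on a principal component along which TAC and Sham did not overlap. Sham replicate 4 stood apart for several genes described here. It was the highest Sham library for 15 of the 36 genes that could be tested, and the results that it moves by over 1.5 times are given with and without it.

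Levels are CPM after TMM normalisation, which scales each library by a factor estimated from most genes, and single values run from replicate 1 to replicate 5. Log2 fold changes are TAC over Sham, with a standard error (SE) and an adjusted p from edgeR's quasi-likelihood test, adjusted over all 15175 genes tested. A gene was called where the adjusted p was under 0.05.

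Of the 62 genes, 36 passed the filter on low counts and were tested, and of these 20 rose in TAC, 5 fell and 11 were not called. That is 55.6% higher and 13.9% lower, in a comparison that called 56.8% of all tested genes, 28.9% higher and 27.9% lower. Every TAC library lay above every Sham library for 12 of the 36 genes and below for 3, against 21.5% and 20.2% of all tested genes. A call with a log2 change of at least 1 was made for 19 genes higher and 3 lower, against 11.7% and 8.1% of all tested genes. The median log2 fold change was 1.12 over the 36 genes and 0.01 over all tested genes. Of the 36 genes, 9 reached the filter's level in every library of TAC alone, 8 of them called higher, and 2 did so in Sham alone, 1 of them called lower. These genes could pass through the group in which they were high, so the counts describe the tested genes and not all 62. Signalling receptors had 7 of 9 tested genes higher and none lower, CC ligands 7 of 15 higher and 3 lower, other ligands 4 of 8 higher and 1 lower, and atypical receptors 2 of 4 higher and 1 lower. The largest increase was that of Ccr2 and the largest decrease that of Ccl11, at opposite ends of the plot of fold changes by role. The tissue was not separated into cells, so more or fewer cells of a type and more or less RNA per cell cannot be told apart in any of these values.

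**Figure D1:**
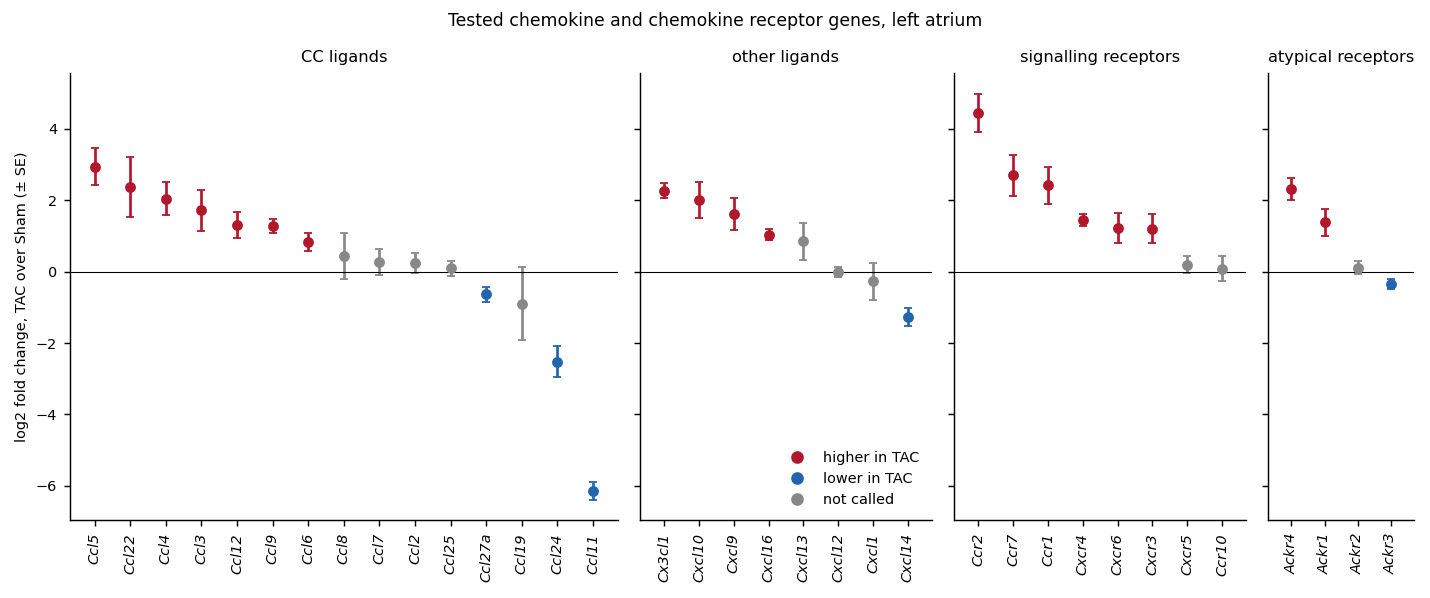
Log2 fold change (TAC over Sham, with SE as bars) of 35 tested chemokine and chemokine receptor genes, grouped by role. Red marks the 19 genes called higher, blue the 5 called lower and grey the 11 not called. The receptor Ccr2 at 4.45 and the ligand Ccl11 at −6.14 are the extremes.

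The receptor Ccr2, which brings monocytes out of the marrow and into tissue, was the most increased gene of the set. It measured 20.5, 48.2, 58.3, 67.5 and 49.5 CPM in TAC, against 1.43, 1.6, 1.15, 5.62 and 0.675 CPM in Sham. Every TAC library lay above every Sham library, and TAC replicate 1 was the lowest of its group. The log2 fold change was 4.45 (SE 0.54, adjusted p = 5.8e-05), a 21.8-fold difference, and it was 5.38 without Sham replicate 4. The gene lies at chr9:124101950-124113557 in GRCm38.

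The ligands of Ccr2 did not all move with it. Ccl2, the main monocyte chemoattractant, measured 5.46, 5.98, 7.96, 4.08 and 8.92 CPM in TAC and 4.66, 8.75, 3.28, 6.21 and 4.62 CPM in Sham, and the groups overlapped. Its log2 fold change was 0.25 (SE 0.27, adjusted p = 0.46, 95% interval −0.35 to 0.84), so an increase of 1 log2 unit lies outside the interval. Ccl7, a further Ccr2 ligand, measured 4.19, 3.71, 5.86, 2.67 and 5.41 CPM in TAC and 2.61, 6.20, 1.40, 5.41 and 2.63 CPM in Sham. It was not called either, at 0.27 (SE 0.37, adjusted p = 0.56, 95% interval −0.54 to 1.08). In Sham replicates 2 and 4 both ligands were above the other Sham libraries.

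Ccl12, the mouse monocyte chemoattractant that also acts on Ccr2, rose. It measured 5.99, 5.80, 5.36, 4.32 and 4.54 CPM in TAC, against 1.12, 2.04, 1.12, 4.59 and 1.35 CPM in Sham. Sham replicate 4 lay within the range of TAC and the other Sham libraries lay below it. The log2 fold change was 1.31 (SE 0.36, adjusted p = 0.0089) and 1.90 without Sham replicate 4. Without the 2 shallowest Sham libraries, replicates 1 and 2, it was 1.12 and no longer called (adjusted p = 0.051).

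Ccl8, a ligand of the same gene cluster, depended on 1 library. It measured 9.39, 3.71, 9.50, 3.26 and 3.11 CPM in TAC and 1.18, 1.73, 1.88, 13.0 and 2.74 CPM in Sham, where replicate 4 held the highest value of all 10 libraries. The log2 fold change was 0.45 (SE 0.65, adjusted p = 0.58, 95% interval −0.98 to 1.88). Without Sham replicate 4 it was 1.6 (SE 0.43, adjusted p = 0.0098), with every TAC library above the 4 remaining Sham libraries.

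Ccl11 and Ccl24, the eotaxins, fell. Both are ligands of Ccr3, the receptor by which eosinophils are drawn into tissue. Ccl11 measured 0.162, 0.249, 0.237, 0.470 and 0.317 CPM in TAC, against 15.6, 26.8, 16.5, 21.4 and 21.0 CPM in Sham. The groups were far apart, and every TAC library was under 0.5 CPM. The log2 fold change was −6.14 (SE 0.26, adjusted p = 6.5e-08), which puts Sham 70.7-fold above TAC. Ccl24 measured 1.39, 0.274, 0.414, 0.470 and 0.923 CPM in TAC, against 3.91, 6.84, 3.34, 2.16 and 4.24 CPM in Sham, again with no overlap. Its log2 fold change was −2.53 (SE 0.44, adjusted p = 0.0005). Ccl11 lies at chr11:82057823-82062955, between Ccl7 and Ccl12, and Ccl24 at chr5:135569937-135573049.

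**Figure D2:**
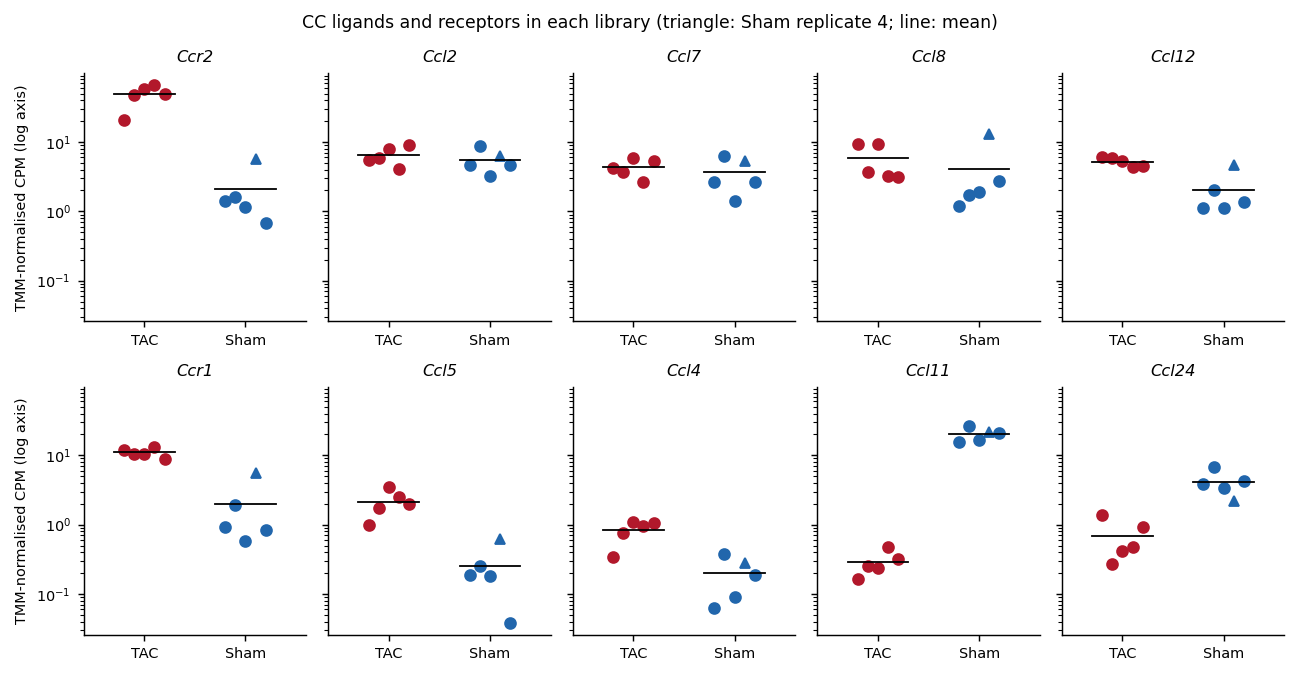
CPM (log axis) of 10 CC ligands and receptors in each library, TAC left and Sham right, with the group mean as a line and Sham replicate 4 as a triangle. Ccr2, Ccr1 and Ccl5 are separated between the groups, Ccl2 and Ccl7 overlap, Ccl11 and Ccl24 are separated with TAC below, and the triangle is the highest Sham value of Ccr2, Ccr1, Ccl8, Ccl12 and Ccl5.

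Ccl3, Ccl4 and Ccl5 rose. Ccl5, made by T cells, NK cells and macrophages, measured 0.995, 1.72, 3.46, 2.47 and 2.01 CPM in TAC, against 0.186, 0.256, 0.182, 0.618 and 0.0375 CPM in Sham. The groups did not overlap, and the log2 fold change was 2.94 (SE 0.52, adjusted p = 0.00054), or 3.73 without Sham replicate 4. Ccl4, a macrophage inflammatory protein, measured 0.347, 0.747, 1.10, 0.969 and 1.06 CPM in TAC, against 0.0621, 0.383, 0.0912, 0.283 and 0.188 CPM in Sham. TAC replicate 1 lay below Sham replicate 2, and the log2 fold change was 2.05 (SE 0.45, adjusted p = 0.0023). Ccl3, a ligand of Ccr1, measured 0.671, 0.399, 0.799, 0.440 and 0.844 CPM in TAC, against 0.124, 0.703, 0.0912, 0.0515 and 0.150 CPM in Sham. Its log2 fold change was 1.72 (SE 0.57, adjusted p = 0.023). That call rested on low counts: it was lost without Sham replicate 3, 4 or 5 (adjusted p = 0.062, 0.059 and 0.054), and the log2 fold change was 2.63 without Sham replicate 2, the Sham library within the TAC range.

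Ccr1, a receptor of monocytes and macrophages, rose. It measured 12.0, 10.5, 10.3, 13.3 and 9.0 CPM in TAC, against 0.931, 1.92, 0.577, 5.62 and 0.826 CPM in Sham, with no overlap. The log2 fold change was 2.42 (SE 0.53, adjusted p = 0.0023) and 3.44 without Sham replicate 4.

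Ccl6 and Ccl9, ligands of Ccr1 that are made by myeloid cells and known from rodents, were among the more abundant ligands of the set and rose. Ccl9 measured 24.4, 31.5, 29.7, 24.3 and 18.9 CPM in TAC, against 10.7, 9.39, 6.75, 12.4 and 13.8 CPM in Sham, with no overlap, and its log2 fold change was 1.28 (SE 0.19, adjusted p = 0.00019). Ccl6 measured 31.2, 18.9, 32.0, 25.9 and 29.5 CPM in TAC, against 20.3, 9.90, 8.60, 17.2 and 21.0 CPM in Sham. TAC replicate 2 lay below Sham replicates 1 and 5, and the log2 fold change was 0.84 (SE 0.25, adjusted p = 0.015).

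Among the other CC ligands, Ccl22, a ligand of Ccr4 made by dendritic cells and macrophages, had few reads. Its counts were 16, 38, 19, 33 and 7 in TAC, against 0, 1, 0, 15 and 0 in Sham. Nearly all Sham reads came from replicate 4. It was called at 2.38 (SE 0.84, adjusted p = 0.03), at 5.32 without Sham replicate 4 (adjusted p = 0.00092), and not called under 8 other settings. Ccl27a, a ligand of Ccr10 best known from skin, measured 2.87, 3.11, 3.05, 1.94 and 1.90 CPM in TAC and 2.30, 4.47, 4.29, 4.43 and 4.47 CPM in Sham. The groups overlapped through Sham replicate 1, and it was called lower at −0.64 (SE 0.22, adjusted p = 0.028), a call lost under 9 settings. Its value is uncertain, because 45.0% of its 50-base stretches also occur in near-identical copies. Ccl19, a ligand of Ccr7, was not called (−0.90, SE 1.02, adjusted p = 0.47, 95% interval −3.13 to 1.34) and shares 52.0% of its stretches with copies. Its highest TAC library measured 0.793 CPM and its highest Sham library 1.55 CPM, and 1 library of each group was at 0. Ccl25, a ligand of Ccr9, was not called either (0.09, SE 0.22, adjusted p = 0.73).

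Cx3cl1 and Cxcl16, which are made as membrane-anchored proteins and shed by proteases, rose. Cx3cl1 (fractalkine), carried by endothelial cells, measured 17.5, 41.7, 25.8, 27.3 and 27.6 CPM in TAC, against 7.45, 4.92, 6.47, 5.21 and 5.07 CPM in Sham. The groups did not overlap, and the log2 fold change was 2.27 (SE 0.21, adjusted p = 7.7e-06), a 4.82-fold difference. Its receptor Cx3cr1, found on monocytes and macrophages and outside the set by its name, measured 11.8, 58.3, 50.5, 45.9 and 43.2 CPM in TAC, against 0.807, 0.958, 1.15, 2.96 and 1.20 CPM in Sham. It rose by 4.78 on the log2 scale (SE 0.49, adjusted p = 1.7e-05), and as for Ccr2 the lowest TAC library was replicate 1 and the highest Sham library replicate 4. Cxcl16, which binds Cxcr6, measured 27.9, 48.6, 42.7, 36.1 and 44.1 CPM in TAC, against 25.1, 20.3, 15.7, 19.5 and 16.8 CPM in Sham, and its log2 fold change was 1.04 (SE 0.16, adjusted p = 0.00022). Of the exonic bases of Cxcl16, 18.3% are shared with Zmynd15 on the other strand. Cxcr6, a receptor of T cells and NK cells, measured 0.671, 2.24, 1.45, 1.85 and 0.818 CPM in TAC and 1.18, 0.703, 0.425, 0.412 and 0.413 CPM in Sham. The groups overlapped, and the call at 1.23 (SE 0.42, adjusted p = 0.025) was lost under 6 settings.

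Cxcl9 and Cxcl10, the interferon-induced ligands of Cxcr3, rose, both at low levels. Cxcl10 measured 1.20, 1.49, 1.72, 1.17 and 2.14 CPM in TAC, against 0.186, 0.128, 0.304, 0.979 and 0.113 CPM in Sham, and rose by 2.01 on the log2 scale (SE 0.49, adjusted p = 0.0044), or 2.98 without Sham replicate 4. Cxcl9 measured 1.46, 1.79, 3.88, 2.41 and 2.24 CPM in TAC, against 0.559, 0.192, 1.15, 1.31 and 0.375 CPM in Sham, and rose by 1.62 (SE 0.44, adjusted p = 0.0076). Neither gene overlapped between the groups. Cxcr3, their receptor on activated T cells and NK cells, measured 0.301, 0.723, 0.651, 0.529 and 0.422 CPM in TAC, against 0.124, 0.0639, 0.395, 0.283 and 0.150 CPM in Sham. It was called at 1.21 (SE 0.41, adjusted p = 0.026), with overlap, and lost the call under 5 settings.

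The promoters of Cxcl9 and Cxcl10, neighbours on chromosome 5 that were both called higher, and of Cxcl1, a neutrophil chemoattractant of the same chromosome that was not called, are shown because these genes are textbook targets of interferon and NF-kB. Each line gives the 250 bases upstream of the start of the gene, 5′ to 3′ on the strand of the gene, from RefSeq on GRCm38.p6. Capitals mark a match to 1 of the motifs searched. The windows are chr5:92328080-92328329 (minus strand) for Cxcl9, chr5:92348890-92349139 (minus strand) for Cxcl10 and chr5:90890995-90891244 (plus strand) for Cxcl1.
Cxcl9: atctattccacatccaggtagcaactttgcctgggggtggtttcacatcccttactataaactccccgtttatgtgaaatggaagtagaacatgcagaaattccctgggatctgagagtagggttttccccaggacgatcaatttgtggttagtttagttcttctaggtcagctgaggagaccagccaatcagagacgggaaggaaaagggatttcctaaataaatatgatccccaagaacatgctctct
Cxcl10: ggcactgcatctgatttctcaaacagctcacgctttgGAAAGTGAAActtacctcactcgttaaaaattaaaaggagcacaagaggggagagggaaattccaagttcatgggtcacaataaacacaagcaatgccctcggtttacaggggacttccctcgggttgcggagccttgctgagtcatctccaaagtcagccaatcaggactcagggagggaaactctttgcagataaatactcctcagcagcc
Cxcl1: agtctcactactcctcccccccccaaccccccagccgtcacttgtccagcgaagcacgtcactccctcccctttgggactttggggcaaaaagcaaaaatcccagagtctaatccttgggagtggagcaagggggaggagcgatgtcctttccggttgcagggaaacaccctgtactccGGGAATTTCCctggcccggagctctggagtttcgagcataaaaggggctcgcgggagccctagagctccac

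A set of 3 motifs was searched on both strands in the same window of 32851 promoters, of which 44 belonged to the chemokine and receptor genes. The interferon-stimulated response element, GAAA followed after 2 bases of any kind by GAAA, was present in Cxcl10 from 213 to 204 bases upstream, and in 2.98% of all promoters. Besides Cxcl10, it matched Ccl19 and Cxcl14, so 1 of the 15 genes called higher that had an entry and 2 of the 29 others held it. Those others include genes under the filter, which could not be called. The NF-kB motif, GGGA followed after any base by TTTCC, was present in Cxcl1 from 71 to 62 bases upstream, in 0.356% of all promoters, and also in Cxcl2, Cxcl3 and Ccr3, which were under the filter. The gamma-activated motif, TTCNNNGAA, was present in 7.02% of all promoters and in Ccl17, Ccr6, Ccr1l1 and Cxcl14. Of these only Cxcl14 passed the filter, and it was called lower. In a fit without the filter, Ccl17 and Ccr3 were called higher. Cxcl9 held none of these letters in this window. Each motif was searched as 1 fixed pattern, so looser forms of a site were not counted, and no match does not mean no site. The Cxcl10 window, for example, holds gggaaattcc and gggacttccc, which are close to the NF-kB pattern but outside it.

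Cxcl1 itself measured 1.16, 0.972, 1.86, 0.793 and 2.74 CPM in TAC and 0.807, 4.28, 0.851, 2.32 and 0.976 CPM in Sham. The groups overlapped and the log2 fold change was −0.27 (SE 0.51, adjusted p = 0.67, 95% interval −1.39 to 0.85). Cxcl2 and Cxcl5, further ligands of the neutrophil receptor Cxcr2, and Cxcr2 itself were under the filter. Cxcl5 had 10, 2, 29, 7 and 16 counts in TAC and 1, 0, 2, 8 and 2 counts in Sham, and Cxcr2 had 17, 11, 20, 3 and 9 counts in TAC and 0, 0, 1, 10 and 0 counts in Sham. In a fit without the filter neither was called (adjusted p = 0.051 and 0.059).

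Cxcl12 and Ackr3 were the most abundant genes of the set by CPM, and Cxcl12 and its receptors moved in different ways. Cxcl12, the stromal ligand that retains marrow cells in their niche, measured 126, 89.2, 85.4, 113 and 94.3 CPM in TAC and 101, 89.3, 93.4, 138 and 92.0 CPM in Sham. The groups overlapped throughout, and the log2 fold change was −0.02 (SE 0.14, adjusted p = 0.92, 95% interval −0.33 to 0.29). Cxcr4, its signalling receptor, rose: it measured 11, 15.2, 12.9, 12.3 and 11.5 CPM in TAC, against 4.41, 4.54, 3.56, 6.26 and 4.24 CPM in Sham. With no overlap, the log2 fold change was 1.45 (SE 0.16, adjusted p = 1.7e-05), a 2.73-fold difference. Ackr3, the atypical receptor that takes up Cxcl12, measured 45.8, 48.5, 51.1, 67.3 and 72.5 CPM in TAC and 63.4, 78.1, 64.6, 81.7 and 74.4 CPM in Sham. It was called lower at −0.35 (SE 0.14, adjusted p = 0.047), with overlap, was at 0.025 when libraries were scaled by total counts alone (adjusted p = 0.89), and lost the call under 9 further settings.

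Cxcl14, a ligand made by stromal and epithelial cells, fell. It measured 7.93, 7.08, 13.3, 5.81 and 4.72 CPM in TAC, against 14.0, 21.4, 15, 19.8 and 23.0 CPM in Sham. TAC replicate 3 came close to the lowest Sham library without reaching it. The log2 fold change was −1.27 (SE 0.26, adjusted p = 0.0015). Cxcl13, the B cell ligand of Cxcr5, measured 2.31, 1.02, 4.0, 0.998 and 2.59 CPM in TAC and 1.30, 0.575, 0.334, 2.14 and 1.58 CPM in Sham, and was not called (0.85, SE 0.51, adjusted p = 0.18, 95% interval −0.27 to 1.98). Cxcr5 measured 0.532, 0.473, 0.681, 0.470 and 0.501 CPM in TAC and 0.621, 0.447, 0.486, 0.387 and 0.413 CPM in Sham, and was not called (0.19, SE 0.24, adjusted p = 0.51).

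Ccr7, the receptor that takes dendritic cells and T cells to lymph nodes, rose. It measured 0.509, 1.77, 1.12, 1.09 and 0.317 CPM in TAC, against 0.186, 0, 0.213, 0.103 and 0.188 CPM in Sham. The groups did not overlap, although TAC replicate 5 lay close to the highest Sham library, and the log2 fold change was 2.70 (SE 0.57, adjusted p = 0.0018). The remaining receptor tested, Ccr10, was not called (0.09, SE 0.34, adjusted p = 0.84).

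The atypical receptors moved apart from each other. Ackr4, which scavenges Ccl19, Ccl21 and Ccl25, measured 46.1, 22.7, 23.2, 31.8 and 31.6 CPM in TAC, against 9.68, 6.26, 6.90, 6.29 and 2.48 CPM in Sham. The increase was 4.96-fold, or 2.31 on the log2 scale (SE 0.31, adjusted p = 0.0001), with no overlap. Of its exonic bases, 8.9% are shared with Acad11 on the other strand, and since the strand setting of the counts is not given, reads there cannot be told apart. Ackr1, the chemokine-binding receptor of venules, measured 0.486, 0.548, 0.799, 0.558 and 1.19 CPM in TAC, against 0.248, 0.256, 0.122, 0.438 and 0.263 CPM in Sham. It was called at 1.39 (SE 0.38, adjusted p = 0.0082) without overlap, and shares 25.7% of its exonic bases with Cadm3. Ackr2, a scavenger of inflammatory CC ligands, measured 5.04, 2.82, 3.08, 3.32 and 4.12 CPM in TAC and 3.48, 3.07, 2.89, 3.61 and 3.94 CPM in Sham. It was not called (0.11, SE 0.18, adjusted p = 0.62, 95% interval −0.29 to 0.51), although scaling by total counts alone gave 0.47 (adjusted p = 0.033).

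Of the 26 genes under the filter, 5 had no read in any library: Ccl20, Ccl21b, Ccl26, Ccl27b and Cxcr1. A count of 0 over the 316629868 counts of all libraries allows up to 0.00947 CPM, for counting error only. Ccl21b and Ccl27b have near-identical copies elsewhere, so reads of the copies cannot be told apart. A further 8 had a total of 1 to 10 counts, and 13 had more. In the fit without the filter, which left out the 5 genes with no read, 3 of the others were called. Each was higher in TAC and had few reads in Sham. Over all genes with a read, that fit called 4606 higher and 3927 lower. How many genes that fit held is not given here, so no share stands beside the 3. Ccl17, a ligand of Ccr4, had 10, 44, 21, 15 and 16 counts in TAC, against 3, 1, 3, 2 and 2 counts in Sham (2.65, SE 0.53, adjusted p = 0.00063). Ccr3, the eotaxin receptor, had 2, 9, 3, 7 and 3 counts in TAC, against 1, 0, 0, 0 and 0 counts in Sham (3.47, SE 1.02, adjusted p = 0.013). Its call thus went in the other direction from those of its ligands Ccl11 and Ccl24. Cxcl11 is named as a Cxcr3 ligand but annotated as a polymorphic pseudogene, so its reads do not show that a working ligand is made. It had 4, 3, 15, 1 and 3 counts in TAC, against 0, 0, 0, 2 and 0 counts in Sham (2.98, SE 1.03, adjusted p = 0.033). Cxcl11 shares 41.7% of its exonic bases with Gm2673. Xcl1 had 11 counts in TAC and 1 in Sham, and its receptor Xcr1, outside the set by its name, was not called (0.37, SE 0.55, adjusted p = 0.59).

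To compare levels between genes, mean CPM were divided by the length of the merged exons in kilobases. On that scale Ackr3 led in both groups, at 17 CPM per kb in TAC and 21.6 CPM per kb in Sham. Ccl11 held the next place in Sham with 18.7 CPM per kb, and had 0.265 CPM per kb in TAC. In TAC the next levels were 15.3 CPM per kb for Ccl6, 13.2 for Cxcl16, 12.4 for Cxcl12, 11.3 for Ccl8 and 9.69 for Ccl12. Ccr2 reached 7.22 CPM per kb in TAC, against 0.310 CPM per kb in Sham. That put it beside Cx3cl1 (7.12 CPM per kb in TAC) and Cxcr4 (6.96 CPM per kb in TAC), and above Ccr1 (3.89). Within TAC the library ranges of Ccl6, Cxcl16 and Cxcl12 overlapped on this scale, as did those of Ccr2, Cx3cl1 and Cxcr4, so neighbours in this order did not differ beyond their spread.

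**Figure D3:**
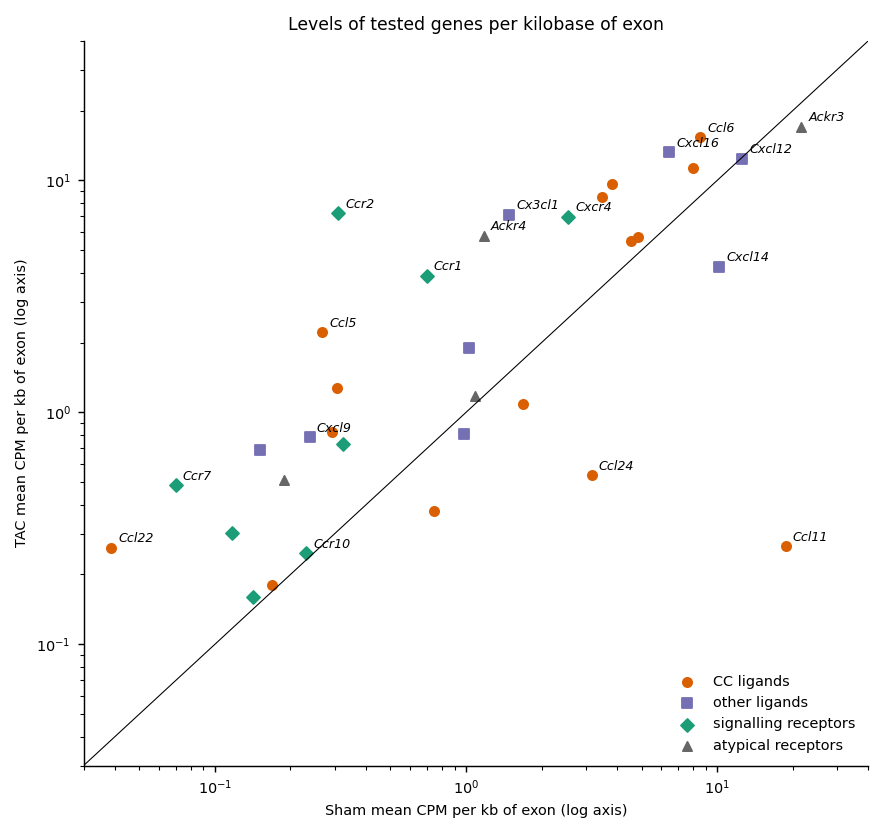
Mean level of 35 tested genes in CPM per kb of merged exon (log axes), with TAC on the vertical axis and Sham on the horizontal axis. Ccr2 and Ccl11 lie farthest from the line of equal levels, on opposite sides, while Cxcl12 lies on it at 12.4 CPM per kb in TAC and 12.6 CPM per kb in Sham.

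Many chemokine genes lie in clusters, here taken as neighbours less than 1 Mb apart in GENCODE annotation of GRCm38. The calls in each cluster stand beside 28.9% of all tested genes called higher and 27.9% called lower. The 2 clusters of CC ligands on chromosome 11 differed in their calls. In the one at chr11:83525778-83664683, all 5 genes (Ccl5, Ccl9, Ccl6, Ccl3 and Ccl4) were tested and called higher. In the one at chr11:82035571-82305690, which holds Ccl2, Ccl7, Ccl11, Ccl12, Ccl8 and the untested Ccl1, 1 gene was called higher, 1 lower and 3 were not called. Log2 fold changes there ran from −6.14 for Ccl11 to 1.31 for its neighbour Ccl12.

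On chromosome 9, the receptor genes Ccr9, Cxcr6, Ccr1, Ccr1l1, Ccr3 and Ccr2 lie at chr9:123678439-124113557, and the 3 of them that were tested were called higher, with log2 fold changes from 1.23 for Cxcr6 to 4.45 for Ccr2. The receptor gene Xcr1, outside the set by its name, lies in the same stretch and was tested but not called (0.37, SE 0.55, adjusted p = 0.59). On chromosome 8, both tested genes at chr8:94745590-94812036 (Ccl22 and Cx3cl1) were called higher, as were Cxcl9 and Cxcl10 at chr5:92321347-92365485. In the cluster of Cxcr2 ligands at chr5:90759360-90905938, Cxcl1 was tested and not called. At chr4:41769467-42773993, Ccl27a was called lower and Ccl19, the other gene tested, was not called. At chr5:135560448-135573049, the only gene tested, Ccl24, was called lower. Neither Cxcr2 nor Cxcr1, at chr1:74153989-74194631, was tested. Neighbouring genes share their region and are not independent of each other, and no test of the clusters was made.

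**Figure D4:**
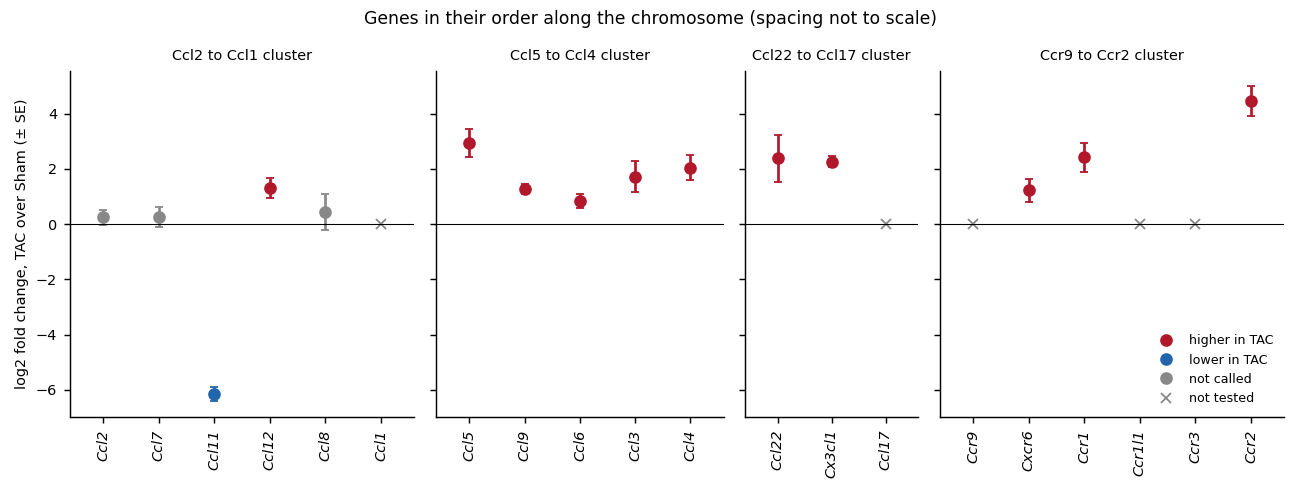
Log2 fold change (TAC over Sham, with SE as bars) of the genes of 4 chemokine and receptor clusters, in chromosome order. Crosses on the zero line mark genes that were not tested. The cluster with Ccl5 to Ccl4 is higher throughout, whereas the cluster with Ccl2 to Ccl1 holds values from −6.14 to 1.31.

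Genes that act with chemokines were followed in 7 lists. Their counts stand beside 28.9% of all tested genes called higher and 27.9% called lower. Some lists, such as the chemokine-like and NF-kB lists, were near or under these shares, and no list was tested as a set. Of 10 chemokine-like genes or receptors outside the naming rule, 9 were tested, 3 rose and 2 fell, with a median log2 fold change of 0.39. Besides Cx3cr1, Mif, a cytokine that also binds Cxcr2 and Cxcr4, rose to 69.1 ± 5.05 CPM in TAC, against 39.3 ± 2.49 CPM in Sham (SD, n = 5 each, log2 fold change 0.81, SE 0.07, adjusted p = 4.4e-06). Cd74, the Mif receptor and invariant chain of antigen presentation, rose by 2.34 (SE 0.62, adjusted p = 0.0079), with overlap, and by 3.36 without Sham replicate 4. Ccrl2, an atypical receptor that binds chemerin, fell by 1.04 on the log2 scale (SE 0.16, adjusted p = 0.00019), and Rarres2, the chemerin gene, fell by 0.95 (SE 0.27, adjusted p = 0.01), a call lost with scaling by total counts alone (adjusted p = 0.084). Rarres2 shares 33.6% of its exonic bases with Lrrc61 on the other strand.

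Of 25 genes of receptor signalling, 12 rose and 5 fell (median 0.33). The leukocyte subunits of phosphoinositide 3-kinase were among those that rose, Pik3cd at 1.74 (SE 0.23) and Pik3r5 at 1.51 (SE 0.22), as was the inhibitory G protein Gnai2 at 0.60 (SE 0.09). Adrbk2, a receptor kinase, was lower at −0.98 (SE 0.18). With scaling by total counts alone, 20 of the 25 were called higher and 1 lower. That scaling also called 7741 higher and 1929 lower of all 15175 genes tested, against 4383 and 4233 in the main fit.

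Leukocyte adhesion had 8 of 16 genes higher and 1 lower (median 0.58). P-selectin (Selp), which catches rolling leukocytes, averaged 7.32 ± 2.99 CPM in TAC and 0.637 ± 0.255 CPM in Sham (log2 fold change 3.50, SE 0.34), and the integrin subunit Itgam was higher at 1.93 (SE 0.24). Itgam shares 68.7% of its exonic bases with Gm49368. Among 16 genes of heparan sulfate, the sugar that holds chemokines on surfaces, 8 rose and 2 fell (median 0.39), with the core proteins Sdc3 at 1.41 (SE 0.16) and Gpc1 at −0.99 (SE 0.11). The other gene that fell there, Hs6st1 at −0.20 (SE 0.07), lost its call without any of 7 single libraries. Of 12 proteases that cut chemokines, 10 were tested, 7 rose and 1 fell (median 1.0). Cathepsin S (Ctss), which can shed Cx3cl1, averaged 95.5 ± 27.7 CPM in TAC and 13.2 ± 4.94 CPM in Sham, whereas Mmp9 was lower at −2.74 (SE 0.38).

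The list of NF-kB subunits and feedback genes was mixed, with 3 of 15 tested genes higher, 3 lower and a median of 0.08. Its increases were Il1b at 4.02 (SE 0.55), Nfkbie at 1.48 (SE 0.25) and Tnfaip3 at 1.01 (SE 0.20), and the genes that fell were led by Nfkbib at −0.59 (SE 0.11). Without TAC replicate 1, the lowest TAC library for the summed list, 7 genes were called higher, and with scaling by total counts alone 8 were higher and none lower. Over all genes, leaving out that library gave 4602 higher and 4224 lower, and that scaling gave 7741 higher and 1929 lower. Of the interferon-gamma and IRF list, 10 of 11 genes were tested, 5 rose and none fell (median 0.49), among them Irf7 at 1.48 (SE 0.30), Gbp3 at 1.20 (SE 0.25) and Ifngr1 at 0.66 (SE 0.08). The cytokine Ifng itself was not tested, with 1 count in all of TAC and 3 in all of Sham. These medians stand beside 0.01 over all tested genes, and scaling by total counts alone moved that overall median to 0.37.

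Markers of the cell types that carry or make chemokines also differed between the groups, and their part in the results above was not tested. Counts of called markers stand beside the same shares of all tested genes, 28.9% higher and 27.9% lower. The summed level of 15 macrophage markers ran from 891 to 1401 CPM in TAC and from 420 to 695 CPM in Sham. Of these markers, 10 rose, such as Fcgr1 at 2.65 (SE 0.31), and 3 fell, among them Timd4 at −1.92 (SE 0.32) and Lyve1 at −2.63 (SE 0.43), markers of resident macrophages. The 8 monocyte markers summed to 853 to 2148 CPM in TAC and 281 to 391 CPM in Sham, and the 6 that were tested rose, such as Ms4a4c at 4.05 (SE 0.31). Their sum was mostly Fn1, which fibroblasts also make.

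The 9 neutrophil markers, Cxcr2 among them, summed to 4.93 to 11.7 CPM in TAC and 0.831 to 3.89 CPM in Sham, and the defining markers Ly6g and Camp averaged under 0.1 CPM in both groups. Dendritic cell markers summed to 89.6 to 243 CPM in TAC and 25.0 to 111 CPM in Sham, with Sham replicate 4 the highest of its group. H2-Ab1, which other antigen-presenting cells also express, made up most of that sum (167 CPM in TAC and 29.7 CPM in Sham), and 5 of the 8 tested markers were not called (median 0.40). The log2 fold change of H2-Ab1 was 2.47 (SE 0.64, adjusted p = 0.007), or 3.6 without Sham replicate 4. B cell markers summed to 10.4 to 35.5 CPM in TAC and 5.33 to 13.3 CPM in Sham. T and NK cell markers summed to 3.08 to 9.30 CPM in TAC and 3.68 to 9.19 CPM in Sham and overlapped throughout, with Lck and Gzma called higher (Gzma not without TAC replicate 3 or 5 or Sham replicate 1) and Trac lower at −2.08 (SE 0.39). Mast cell and eosinophil markers summed to 12.1 to 20.4 CPM in TAC and 4.39 to 11.4 CPM in Sham, most of the difference being Kit (12.3 CPM in TAC and 4.94 CPM in Sham), which other cells also express. Of the 5 tested, Kit and Mcpt4 rose, Tpsb2 fell (−2.13, SE 0.73, adjusted p = 0.027, lost without TAC replicate 1 or 5 or Sham replicate 3) and the median was −0.78. That list had Epx, a defining eosinophil gene, at 0 in every library and Siglecf, a surface marker of eosinophils, at 50 counts in all of TAC and 1 in all of Sham.

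Among the structural cells, the 9 cardiomyocyte markers summed to 44290 to 56930 CPM in TAC and 84030 to 97840 CPM in Sham, with 8 lower and the stress gene Nppa higher. Fibroblast markers overlapped in their sum (4719 to 9254 CPM in TAC and 4542 to 6429 CPM in Sham), with 5 of 9 higher and 3 lower. Smooth muscle and pericyte markers summed to 637 to 858 CPM in TAC and 390 to 497 CPM in Sham. Lymphatic endothelial markers summed to 83.8 to 131 CPM in TAC and 170 to 240 CPM in Sham, with 4 of 6 lower. Lyve1, the gene named above among the macrophage markers, is also in this sum and made up most of its difference (12.5 CPM in TAC and 77.8 CPM in Sham). The sums of blood endothelial, mesothelial, platelet and adipocyte markers overlapped between the groups. The adipocyte sum was mostly Fabp4 (227 CPM in TAC and 154 CPM in Sham), which rose (0.56, SE 0.13, adjusted p = 0.0034). The other 5 of the 6 tested adipocyte markers fell, led by Plin1 at −3.95 (SE 0.75), or −5.04 without TAC replicate 4, and 3 were called without Sham replicate 2. Erythroid markers, a measure of blood left in the tissue, summed to 298 to 2553 CPM in TAC and 136 to 300 CPM in Sham, with TAC replicate 3 the highest.

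**Figure D5:**
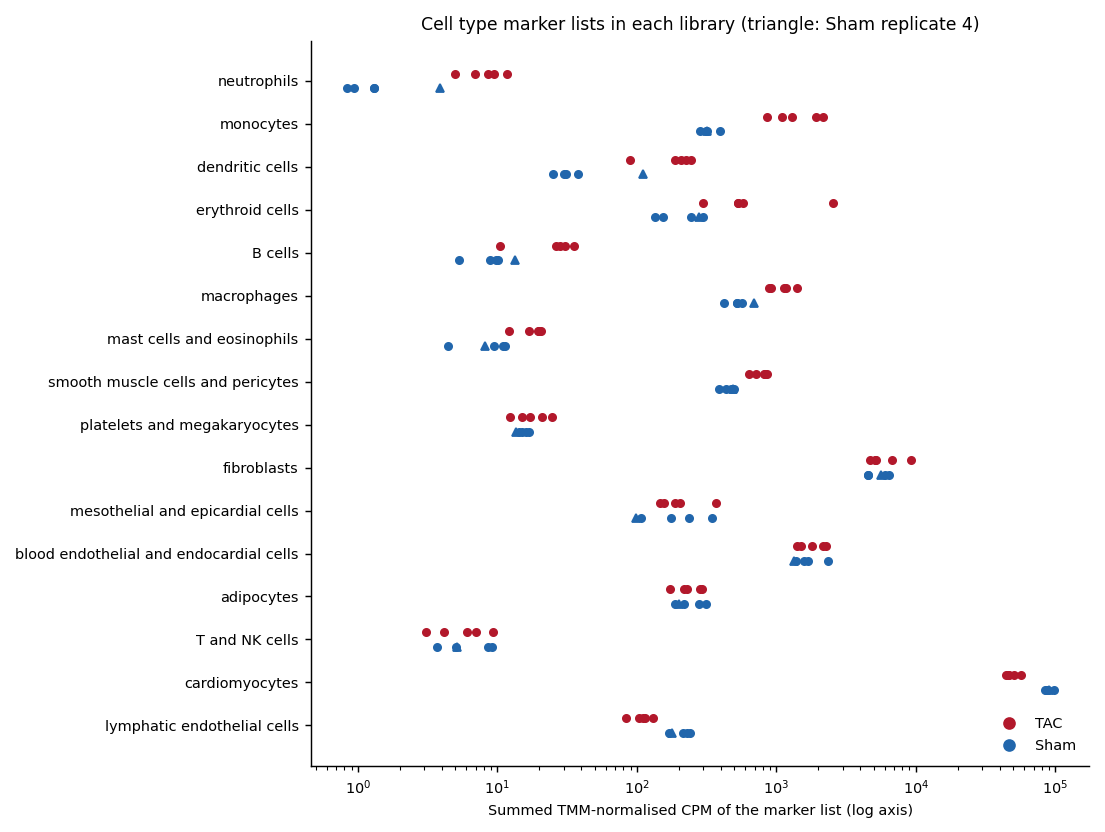
Summed CPM (log axis) of 16 lists of cell type markers in each library, TAC above Sham for each list. Macrophage, monocyte, neutrophil, mast cell and eosinophil, and smooth muscle lists lie higher in TAC without overlap, cardiomyocyte and lymphatic lists lie lower without overlap, and the T and NK cell list overlaps.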

How the data were processed

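Each deposited table gives 1 library's raw counts per gene symbol, as whole numbers without normalisation by the authors. Per the submitters' processing notes, STAR, bcl2fastq and the build mm10 were used, with no versions or order. How reads were counted (tool, strand, annotation) is not given in the sources used here. Genes whose exons overlap other genes may therefore share reads, also where no overlap is named above. The 5 tallies that name no gene stayed out of library sizes and tests; in TAC and Sham they averaged 3.76% and 3.12% of reads in no gene, 5.79% and 4.31% ambiguous, 4.62% and 4.12% not aligned and 13.4% and 15.8% aligned to several places.

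Counts were tested with edgeR 4.0.16 in R 4.3.3 (quasi-likelihood, robust, TMM factors, group as the only term). The default filter kept 15175 genes at or above 0.309 CPM in at least 5 libraries. The SE is the log2 fold change divided by the square root of F, and 95% intervals use the fit's degrees of freedom. DESeq2 1.42.0, limma 3.58.1 (voom) and other filters, factors, thresholds and left-out libraries were alternatives. On simulated counts with 14499 genes tested, 43.3% of genes changed 1.5-fold, 71.6% changed 2-fold and 97% changed 4-fold were recovered, and 4.1% of 147 calls were false. The simulation changed only 67, 67 and 66 genes at these folds, in random directions, none of them at the lowest levels. It held no shift in composition between the groups. These rates need not hold for the real data, where 56.8% of tested genes were called. Replicate numbers come from the titles; same-numbered deviations correlated from −0.036 to 0.08, so the numbers did not pair the samples.

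Values in every library are given for the called genes with the 8 largest increases and decreases (mean log2 CPM 0 or higher), the 4 most abundant genes and set ligand-receptor groups. For 7 pathway lists and 16 cell type lists, up to 4 called genes with the smallest adjusted p and up to 2 of the rarer direction were eligible. The genes and lists were chosen with earlier results of these data known. Coordinates are from GENCODE annotation of GRCm38 and promoters from RefSeq on GRCm38.p6. For 1 tested gene no result of its own is reported here. Copies were sought as shared 50-base stretches of transcripts.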

Additional observations from a re-analysis of the deposited data

Results flagged for a closer look

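A library was looked at again where its gap to the nearest other library of its group exceeded 0.71 of the group's range. Chance does so in about 1 in 20 groups of 5 independent, normally distributed values. The CPM used were not transformed, some lay near 0, and the groups shared libraries, so that rate need not hold here. Of 116 groups examined, 15 had such a library, and in 10 it was Sham replicate 4. That library was the highest Sham library, with the range of the other Sham libraries after it, for Ccr2 at 5.62 CPM (0.675 to 1.6), Ccr1 at 5.62 CPM (0.577 to 1.92), Ccl8 at 13.0 CPM (1.18 to 2.74), Ccl12 at 4.59 CPM (1.12 to 2.04), Ccl22 at 0.387 CPM (0 to 0.0639), Cxcl10 at 0.979 CPM (0.113 to 0.304) and Cxcl12 at 138 CPM (89.3 to 101). The same library had the highest Sham sums for the chemokine-like genes outside the naming rule (366 CPM, against 159 to 213), the neutrophil markers (3.89 CPM, against 0.831 to 1.31) and the dendritic cell markers (111 CPM, against 25.0 to 37.6). The part of these markers in the chemokine values of that library was not tested.

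A further 2 genes had a Sham library apart: Ccl27a was lowest in replicate 1 at 2.30 CPM (the others 4.29 to 4.47), and Ccl3 highest in replicate 2 at 0.703 CPM (the others 0.0515 to 0.150). Among sums in TAC, the NF-kB list was lowest in replicate 1 at 329 CPM (the others 387 to 405), the erythroid list highest in replicate 3 at 2553 CPM (the others 298 to 575) and the mesothelial list highest in replicate 5 at 371 CPM (the others 147 to 202).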

How the results depend on the processing

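Of the 36 tested genes, 23 kept their direction and their side of the threshold under every one of up to 21 alternatives, and 18 of the 25 called genes did so. The other 7 called genes (Ackr3, Ccl12, Ccl22, Ccl27a, Ccl3, Cxcr3 and Cxcr6) lost the call under at least 1, and Ackr2 and Ccl8 gained one. Of the 11 not called, 6 changed sign under at least 1 without a call there: Ccl25 was at −0.038 with limma voom, Ccl8 at −0.035 without the 2 shallow Sham libraries, Cxcl1 at 0.091 with scaling by total counts alone and 0.104 without those 2 libraries, and Cxcl12 at 0.333 and 0.029 with scaling by total counts and upper-quartile factors. With 1 library left out, Ackr2 ran from −0.0084 to 0.21, Ccr10 from −0.25 to 0.25, Cxcl1 from −0.59 to 0.25 and Cxcl12 from −0.090 to 0.11. The 20 called higher became 13 with a filter of 1 CPM in 5 libraries, which tests fewer genes, and 12 where the groups' values must not overlap, and ran from 17 to 21 with 1 library left out. The 5 called lower became 3 with scaling by total counts alone, at an adjusted p under 0.01, at a log2 fold change of at least 1 and without overlap, and ran from 3 to 5 with 1 library left out, reaching 3 without Sham replicate 2, 4 or 5. Without Sham replicate 4, 20 genes were called higher and 3 lower, and without the 2 shallow Sham libraries 18 and 4. Over all genes, 4383 were higher and 4233 lower. Scaling by total counts alone gave 7741 higher and 1929 lower, a log2 fold change of at least 1 gave 1781 and 1229, and leaving out 1 library gave 4136 to 4602 higher and 3762 to 4224 lower. The filter of 1 CPM gave 4029 and 3972, and an adjusted p under 0.01 gave 3417 and 3211. Leaving out Sham replicate 4 gave 4224 and 3994, and leaving out the 2 shallow Sham libraries gave 4103 and 3956. Scaling by total counts alone reversed Ackr3, to 0.025 (adjusted p = 0.89), Hs6st1, to 0.16 (adjusted p = 0.11), Ikbkg, to 0.12 (adjusted p = 0.17), and the TAC over Sham ratios of 3 summed lists: heparan sulfate to 1.15, T and NK cells to 1.20 and adipocytes to 1.28. The cause was not tested. The replicate numbers did not pair the samples, and no TAC library correlated best with its own number. A replicate block gave 19 higher and 4 lower, with Ccl27a (adjusted p = 0.061) and Cxcr6 (0.054) no longer called, and 4103 higher and 3917 lower over all genes. Depth limits the genes with few reads: thinning to the shallowest library left 16 higher and 4 lower. Over all genes, thinning left 4097 higher and 3974 lower.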
